A study of Mus musculus with 6 samples.

Results

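Liver macrophages that carried transcripts of Trem2 and Gpnmb but few transcripts of Kupffer cell genes were examined in single-cell RNA sequencing of liver non-parenchymal cells (LNPCs) from mice with NASH. A cell was a member when it had at least 1 UMI (unique molecular identifier, 1 counted RNA molecule) of Trem2 and at least 1 of Gpnmb. It also needed a summed count of C1qa, C1qb and C1qc of at least 3, a summed count of Clec4f, Vsig4 and Cd5l of at most 2, and a summed count of Kdr and Ptprb of at most 1. Cells were kept with under 5000 genes detected and under 5% mitochondrial UMIs. The rule was met by 659 of 27544 cells, which was 2.39% of all cells kept and 13.6% of the 4847 cells called C1q macrophages here, those that passed the C1q and Kdr and Ptprb limits. The Kupffer gate is the sum of Clec4f, Vsig4 and Cd5l, where 3 or more is inside and 2 or fewer is outside.

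All libraries came from male C57BL/6J mice that were 8 weeks old at the start and had 24 weeks of high-fat diet (HFD), and no healthy liver was analysed here. In the last 8 weeks the HFD + Veh mice received the solvent DMSO and the HFD + Gink mice were given the plant compound ginkgetin into the stomach, 10 mg/kg each day. Each group had 3 libraries, and the methods give n = 3 per group for mice with NASH without saying whether each library was 1 animal, which the labels do not say either, so p-values measure only the spread between libraries, which may be technical. The comparison of the groups asks whether these macrophages differ in number after ginkgetin, and the comparisons among macrophages ask how they differ from the Kupffer-gate and other macrophages of the same livers.

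TREM2 is a lipid-sensing receptor of the macrophage surface that signals through the adaptor TYROBP. GPNMB is a glycoprotein of lysosomal and phagosomal membranes, and its gene is a target of the lysosomal MiT/TFE transcription factors. Macrophages that express both are known from fatty liver, adipose tissue and atherosclerotic plaque as lipid-associated macrophages, in which genes of lipid uptake and lysosomal breakdown are high. Kupffer cells are the resident macrophages of the liver sinusoid and are known by CLEC4F, VSIG4, TIMD4 and MARCO, whereas monocytes that enter from blood express CCR2 and S100A proteins and can take on macrophage genes in the tissue.

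The promoters of the pair of genes that define the cells are shown because the choice of cells rests on these transcripts. Both are 300 bases from RefSeq on GRCm38.p6, 250 before and 50 after the annotated start, on the + strand, at chr17:48346151-48346450 for Trem2 and chr6:49036268-49036567 for Gpnmb. The 4 motifs searched on both strands were CATGTG (the M-box core read by MiT/TFE factors), CACGTG (E-box), TGAGTCA (AP-1) and GAGGAA (the PU.1 core), and none of these overlaps another in the sequences shown. Capitals mark each match.
Trem2: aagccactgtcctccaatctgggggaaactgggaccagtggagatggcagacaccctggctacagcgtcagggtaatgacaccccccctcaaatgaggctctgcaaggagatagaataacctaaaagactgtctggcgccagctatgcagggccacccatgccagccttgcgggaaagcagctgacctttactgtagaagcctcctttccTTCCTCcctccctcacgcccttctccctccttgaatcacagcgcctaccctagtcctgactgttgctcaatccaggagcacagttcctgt
Gpnmb: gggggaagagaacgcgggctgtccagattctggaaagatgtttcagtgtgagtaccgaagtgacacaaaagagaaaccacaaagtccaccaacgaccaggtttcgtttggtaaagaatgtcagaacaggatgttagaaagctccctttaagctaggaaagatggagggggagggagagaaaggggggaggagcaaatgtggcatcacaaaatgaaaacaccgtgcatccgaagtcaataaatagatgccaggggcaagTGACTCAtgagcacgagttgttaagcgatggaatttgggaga
The Trem2 window held 1 PU.1 core, on the minus strand with its first base at -40 from the start. The Gpnmb window held 1 AP-1 match, on the minus strand at 9 bases from the start. Neither CATGTG nor CACGTG occurred in these windows. Of 32851 RefSeq mouse promoters of this length, 28.3% held GAGGAA, 5.20% TGAGTCA, 14.2% CATGTG and 7.15% CACGTG. A match is a run of letters and was not tested as a binding site.

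The libraries held 13128697 to 61796882 UMIs, and kept cells had median UMIs of 3911.5 to 8412 in the vehicle libraries and 2483 to 6262 in the ginkgetin libraries. Replicate 3 of both groups stood apart from replicates 1 and 2 in depth, in the barcodes used and in which genes had any count, so values are also given within replicate 3 and within replicates 1 and 2. Libraries shared 252 barcodes within replicates 1 and 2, 4 between these and replicate 3, and 10 between the libraries of replicate 3. Of these barcodes, 5 were members in either library, 0 were members in both, and 0 had the same profile. T cells served as the background for free RNA. They had a summed count of Cd3d, Cd3e and Cd3g of at least 2 and a C1q sum of at most 2. In the vehicle libraries 1, 0 and 4 of these 1279, 647 and 847 T cells had UMIs of both Trem2 and Gpnmb. A further 50, 14 and 22 T cells with a C1q sum of 3 or more were left out, so this background excludes T cells with more C1q RNA.

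Members were found almost entirely in the vehicle libraries. Vehicle replicates 1, 2 and 3 held 201, 135 and 316 members, which was 3.34%, 4.05% and 7.64% of their kept cells. Ginkgetin replicates 1, 2 and 3 held 1, 1 and 5 members, which was 0.0286%, 0.0145% and 0.137%. The lowest vehicle library was far above the highest ginkgetin library. Vehicle libraries averaged 5.01% ± 2.30 and ginkgetin libraries 0.0601% ± 0.0672 (SD, n = 3 each), so that the groups differed by -4.95 percentage points (two-sided exact permutation p = 0.10, the smallest that 3 against 3 libraries allow). Within replicates 1 and 2 the difference was -3.67 points, and in replicate 3 it was -7.50 points.

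The same order was seen among C1q macrophages alone. Members made up 11.6%, 14.2% and 23.8% of the C1q macrophages in the vehicle libraries and 0.758%, 0.617% and 0.917% in the ginkgetin libraries. The group values were 16.5% ± 6.41 and 0.764% ± 0.150 (SD, n = 3 each), again without overlap (difference -15.8 points, two-sided exact permutation p = 0.10). The difference was -12.2 points within replicates 1 and 2 and -22.9 points in replicate 3. The ginkgetin libraries held 132, 162 and 545 C1q macrophages against 1730, 950 and 1328 in the vehicle libraries, so each ginkgetin share rests on few cells.

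Depth differed between the groups, and the rule depends on detecting single UMIs. The difference kept its sign when cells were thinned to 2000 UMIs (-3.81 points of kept cells) and to 1000 UMIs (-2.49 points, with 0 members in each ginkgetin library). Shallower cells were left out, which at 2000 UMIs left 6017, 3108 and 3977 of the kept vehicle cells and 2653, 5386 and 3227 of the kept ginkgetin cells, so the cells compared were not all the same as before. The methods of the study word the cell filter as a range of UMIs, whereas genes were counted here. With the filter read as 250 to 5000 UMIs, members numbered 28, 17 and 11 in the vehicle libraries and 0, 1 and 0 in the ginkgetin libraries, and the share in the vehicle libraries was 0.873% ± 0.0437 (SD, n = 3), a difference of -0.867 points. Fewer such cells and less Trem2 or Gpnmb RNA per cell cannot be told apart, because both genes are part of the rule.

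The groups also differed in the other C1q macrophages, which numbered 596, 242 and 342 outside the gate in the vehicle libraries and 36, 21 and 34 in the ginkgetin libraries. An edgeR quasi-likelihood test on cell numbers gave log2 changes of -6.46 for members, -11.58 for Trem2 Gpnmb cells inside the gate, which had 0 cells after ginkgetin so that this value is no bound, and -3.50 for other C1q macrophages outside it (adjusted p = 0.00125, 0.000536 and 0.00148). Other Kupffer-gate cells did not pass (-0.36, adjusted p = 0.677). In the same edgeR test kept cells that were not C1q macrophages were higher after ginkgetin (log2 change 0.40, adjusted p = 0.0381). The numbers sum to the kept cells of each library, so falls and rises are tied. The C1q macrophages were then split by Trem2 and Gpnmb. Outside the Kupffer gate, both genes were detected in 25.2%, 35.8% and 48.0% of cells in the vehicle libraries and in 2.70%, 4.55% and 12.8% in the ginkgetin libraries. Trem2 alone was detected in 36.9%, 34.2% and 35.3% of these cells after vehicle and in 40.5%, 40.9% and 51.3% after ginkgetin. For Trem2 alone each ginkgetin share lay above each vehicle share, on 37, 22 and 39 ginkgetin cells and 797, 377 and 658 vehicle cells. Inside the gate the order was the other way, with Trem2 alone in 39.3%, 36.8% and 26.0% of vehicle cells and in 8.42%, 10.0% and 8.89% of ginkgetin cells. Inside the gate, both genes were detected in 45.6%, 43.5% and 64.9% of vehicle cells and in 0 of 95, 0 of 140 and 0 of 506 ginkgetin cells, which by a floor of 3 counts allows shares of up to 3.16%, 2.14% and 0.593% (exact 95% upper limits 3.81%, 2.60% and 0.726%). These ginkgetin cells were shallow, with median UMIs of 2235, 1732.5 and 2315.5. They also differed from the other Kupffer-gate cells of the vehicle libraries in the summed level of 8 endothelial markers, 963, 1663 and 1052 CPM against 347, 320 and 388 CPM, and in the median C1q sum, 21, 16.5 and 24 against 133.5, 96 and 287 UMIs. Without cells holding UMIs of other cell types, 50, 17 and 254 ginkgetin cells were left inside the gate, again with 0 that had both genes. Hepatocyte and dendritic cell markers were not counted for this. The part of endothelial RNA in the shares inside the gate was not tested, and the limits cover counting error only. The order of the sides turned with depth: in the vehicle libraries the share was 36.4% ± 11.4 outside and 51.3% ± 11.8 inside (SD, n = 3), but with cells thinned to 2000 UMIs and shallower cells left out it was 18.6%, 32.3% and 34.8% outside and 17.3%, 19.3% and 31.4% inside.

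**Figure D1:**
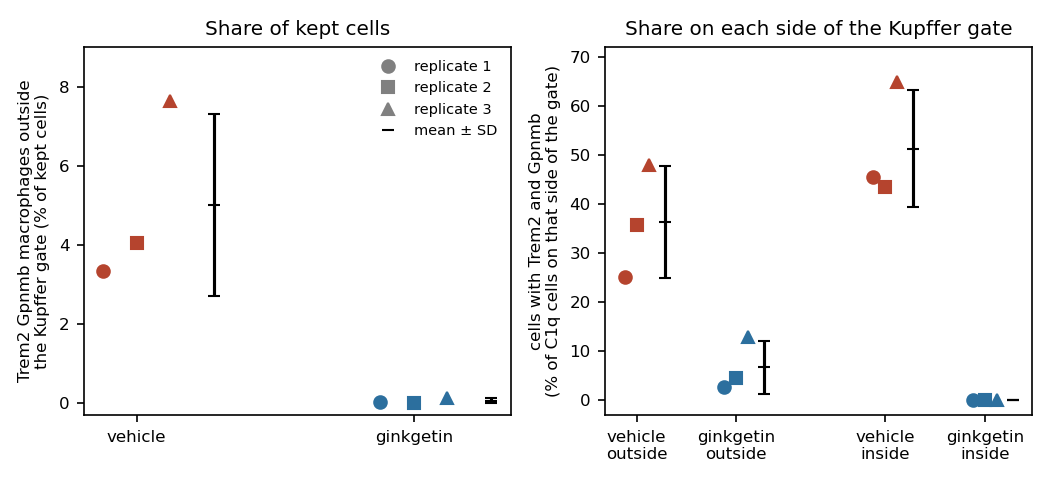
Left, members as a percent of kept cells. Right, cells with both Trem2 and Gpnmb as a percent of the C1q macrophages outside and inside the Kupffer gate. Each point is a library, with circles, squares and triangles for replicates 1, 2 and 3, and the black bar is the mean ± SD. Vehicle libraries lie at 3.34% to 7.64% of kept cells, and every ginkgetin library lies below every vehicle library in both panels.

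Members were chosen by their UMIs of the rule genes, and these values are given as a description. In the vehicle libraries the median member had 11, 11 and 23 UMIs of Trem2 and 3, 4 and 6 of Gpnmb, and Gpnmb was at a single UMI in 26.9%, 23.7% and 13.9% of members. The Kupffer sum was 0 in 53.2%, 48.1% and 54.1% of members. Over the vehicle libraries, 343, 224 and 85 members had Kupffer sums of 0, 1 and 2, and just past the limit 38, 19 and 17 cells had sums of 3, 4 and 5. Levels below are in CPM, the UMIs of a gene scaled to the total UMIs of the pooled cells of a library. Ccr2 stood at 313, 218 and 204 CPM for Kupffer sums of 0, 1 and 2, and at 176, 127 and 121 CPM for sums of 3, 4 and 5. Ms4a7 stood at 755, 712 and 625 CPM inside the limit and at 377, 634 and 666 CPM past it. At the C1q limit, 6, 1, 3 and 1 members had sums of 3, 4, 5 and 6, whereas 32, 27 and 15 cells with both genes had sums of 0, 1 and 2 and were left out. At the limit for Kdr and Ptprb, 603 and 49 members had sums of 0 and 1, and 11 cells with a sum of 2 were left out.

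The cells carried the label markers that the rule did not use. Ms4a7 encodes a membrane protein of macrophages, and its level in members was 746, 524 and 767 CPM in vehicle replicates 1, 2 and 3. After thinning to 2000 UMIs it was detected in 60.7%, 55.2% and 66.0% of members, against 1.02%, 0.661% and 1.09% of T cells. The unthinned shares were 83.6%, 83.7% and 92.7% of members and 1.95%, 1.08% and 1.42% of T cells. Pf4 encodes a chemokine also made by tissue macrophages, and it stood at 691, 689.7 and 544 CPM. It was detected in 52.7%, 45.5% and 42.2% of thinned members against 0.391%, 1.49% and 0.121% of T cells, and unthinned in 75.6%, 75.6% and 75.0% against 1.02%, 1.55% and 0.590%. Both markers thus stood well above their level in these T cells. The T cells were limited to a C1q sum of at most 2 and the members to at least 3, so the background leaves out T cells with more C1q RNA.

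Members were compared with 3 other populations of C1q macrophages in the vehicle libraries. Trem2 Gpnmb macrophages inside the Kupffer gate numbered 425, 249 and 435, other Kupffer-gate cells 508, 324 and 235, and other C1q macrophages outside the gate 596, 242 and 342. UMIs were summed by library and population and fitted in 1 edgeR model with the library as a block, over 10207 genes. A gene is said here to differ, and to be higher or lower, when its quasi-likelihood p adjusted by Benjamini-Hochberg was under 0.05 and its fold over 2. The 10 genes of the rule were left out. The remaining genes come from the same cells as the rule genes, so genes that vary with them were in part selected, and a p-value says only whether a difference exceeds its spread over libraries. The 3 comparisons also share the members. Of all genes tested, 5.08% differed from the Trem2 Gpnmb cells inside the gate, 9.57% from other Kupffer-gate cells and 8.71% from other C1q macrophages outside it. In the same order, 16.5%, 24.9% and 24.5% of all genes had no overlap between the populations over the 3 libraries.

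Beside the Trem2 Gpnmb macrophages inside the gate, members had lower levels of most Kupffer cell genes and higher levels of 9 of 18 monocyte genes, while most lysosomal and lipid genes did not pass the test. There were 212 genes higher (2.08% of those tested) and 307 lower (3.01%). Of 23 Kupffer identity genes outside the rule, 17 were lower and 1 was higher, with a median log2 fold change of -2.75 against 0.01 for all genes. Of 18 monocyte genes, 9 were higher and 9 did not pass, with a median of 1.10. Of 22 lipid-associated macrophage genes, 2 were higher, 1 was lower and 19 did not pass, with a median of 0.29.

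Slc40a1, the iron exporter ferroportin, stood at 35.2, 29.3 and 38.8 CPM in members of vehicle replicates 1, 2 and 3 and at 539, 465 and 583 CPM in the Trem2 Gpnmb cells inside the gate. The populations did not overlap, and the log2 fold change was -3.87 ± 0.11 (SE, adjusted p = 7.96e-12). Fcna, a ficolin that binds sugars on microbes, stood at 5.53, 6.44 and 2.19 CPM against 179, 153 and 154 CPM (log2 fold change -5.30 ± 0.44). Folr2, a folate receptor of resident macrophages, stood at 59.4, 51.5 and 35.6 CPM against 569.7, 409 and 417 CPM (log2 fold change -3.23 ± 0.20). Paqr9, a membrane receptor of the progestin and adipoQ family, stood at 1.01, 1.43 and 1.39 CPM against 68.5, 57.9 and 84.6 CPM (log2 fold change -5.77 ± 0.19). For each of these genes the members were at a small part of the level inside the gate in every library. By the naming rule the falls outside the Kupffer list were C6, a complement component (log2 fold change -5.58), Apoc1, an apolipoprotein (-4.21), and Tspan15, a tetraspanin that partners ADAM10 (-3.85). Cdh5, the vascular cadherin that Kupffer cells also carry, was lower too (-4.08), and it is also an endothelial marker, of which Stab2 and Pecam1 were lower as well (3 of 6 tested, none higher). The part of endothelial RNA in that difference was not tested.

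Timd4 and Marco, the phosphatidylserine receptor and the scavenger receptor of resident Kupffer cells, had 3 UMIs each over all 652 vehicle members. Against 434 Timd4 and 290 Marco UMIs inside the gate, the ratio was 73.6 for Timd4 (95% interval 25 to 358, counting error only) and 49.2 for Marco (16.7 to 239.8). Kcna2, a potassium channel gene, and Pcolce2, an enhancer of procollagen processing, had 0 UMIs in the members and were at least 132-fold and 120.0-fold lower by a floor of 3 counts over the group. Clec4e, a C-type lectin that senses dying cells, was the only gene of the Kupffer list that was higher. It stood at 22.6, 15.7 and 30.9 CPM against 4.84, 3.30 and 5.58 CPM (log2 fold change 2.41 ± 0.22), and it was named here after its values were seen. Clec4e was also lower than in the other macrophages outside the gate, an order shared with the monocyte genes S100a6 and S100a4 below.

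Several monocyte genes were among the genes higher than inside the gate. Ccr2, the receptor for the monocyte chemokine CCL2, stood at 247, 215 and 281 CPM in members against 48.5, 56.1 and 39.6 CPM (log2 fold change 2.46 ± 0.17, adjusted p = 1.51e-07). S100a6, a calcium-binding protein, stood at 280.2, 228 and 244 CPM against 51.3, 30.4 and 28.6 CPM (log2 fold change 2.85 ± 0.15). Both were above the highest other value in every vehicle library. Also higher, with their log2 fold changes, were S100a4, a relative of S100a6 (2.96), Fn1, which encodes fibronectin (3.31), F10, coagulation factor X (3.01), the scaffold gene Ahnak (2.36) and Emb, a partner of lactate transporters (2.19). Cx3cr1, the fractalkine receptor, was higher by 1.02 on the log2 scale, and just missed the fold limit without vehicle replicate 1 (0.99). Slpi, a secreted protease inhibitor, stood at 10.6, 45.1 and 171 CPM against 3.91, 9.17 and 4.15 CPM (log2 fold change 4.19 ± 1.18, adjusted p = 0.0273). This call rested on vehicle replicate 3, without which it was 1.92 (adjusted p = 0.425), and it was also lost without the library block (adjusted p = 0.273) and without cells holding UMIs of other cell types (adjusted p = 0.236).

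Between Trem2 Gpnmb cells outside and inside the gate 13.6% of lipid-associated and 3.13% of lysosomal genes passed, against 5.08% of all genes. An unadjusted edgeR p under 0.05 was found for 18 of 22 lipid-associated and 19 of 32 lysosomal genes. Lpl, which encodes lipoprotein lipase, stood at 2269, 2589.9 and 2441 CPM in members and 2119, 2402 and 2726 CPM inside (log2 fold change 0.08 ± 0.15, adjusted p = 0.825). Atp6v0d2, a macrophage subunit of the V-ATPase proton pump, stood at 94.6, 87.3 and 117 CPM against 98.8, 77.4 and 145 CPM (-0.04 ± 0.14, adjusted p = 0.927). Their ranges overlapped. Ctsd, the aspartic protease of lysosomes, stood at 3084, 2904 and 3184 CPM against 3549.6, 3666 and 4959.7 CPM, a log2 fold change of -0.34 ± 0.10. Of 32 lysosomal genes 1 was higher and none lower. Of 16 V-ATPase genes the edgeR test called 0, with 7 at an unadjusted p under 0.05, and DESeq2 also called 0. Genes of lipid handling that were lower included Pltp, the phospholipid transfer protein, at 267, 278 and 346 CPM against 609, 839 and 1025 CPM (-1.39 ± 0.13), Fabp7, a fatty acid binding protein (-3.04), and Apoc1 above. Mmp12, macrophage elastase, and Ccl24, an eosinophil chemokine, were lower as well (-1.25 and -3.11).

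Against other Kupffer-gate cells, members had lower levels of most Kupffer identity genes and higher levels of part of the lipid-associated genes. There were 430 genes higher (4.21%) and 547 lower (5.36%). Of the 23 Kupffer identity genes 19 were lower and 1, Clec4e, was higher, with a median log2 fold change of -3.0 against -0.01 for all genes. Endothelial markers moved with them, with 4 of 6 tested lower, a sum of 34.7 to 66.9 CPM in members against 320 to 388 CPM, and 2 or more endothelial UMIs in 12.4% to 15.6% of members against 50.3% to 70.6% of other Kupffer-gate cells. The rule itself limits Kdr and Ptprb, which are in this sum, and the part of endothelial RNA in the falls was not tested. Of the 22 lipid-associated macrophage genes 10 were higher and none was lower, with a median of 0.90. The monocyte list was split, with 7 of 18 higher and 4 lower, and a median of 0.80.

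Fabp5, a fatty acid binding protein, stood at 1288, 1177 and 1224 CPM in members and at 95.7, 76.0 and 61.6 CPM in other Kupffer-gate cells (log2 fold change 4.09 ± 0.13, adjusted p = 1.5e-11). After thinning it was detected in 52.7%, 54.5% and 54.6% of members, in 12.6%, 12.9% and 9.73% of other Kupffer-gate cells and in 6.80%, 4.63% and 6.67% of T cells. Anxa1, a phospholipid-binding protein that limits inflammation, stood at 346, 275 and 328 CPM against 24.7, 15.7 and 12.6 CPM (4.23 ± 0.23). Atp6v0d2 was at 8.10, 4.47 and 17.2 CPM in other Kupffer-gate cells (3.41 ± 0.18). None of these genes overlapped between the populations. The rest of the largest rises were Kcnn4, a calcium-activated potassium channel (3.66), Lgals1, galectin-1 (3.63), Lat2, an adaptor of immune receptors (3.32), Adam8, a membrane protease (3.28), and Cd93, a surface lectin (3.22). Cd63, a lysosomal tetraspanin, was higher by 2.24 on the log2 scale and Lgals3, galectin-3, by 1.38. The label markers were higher as well than in other Kupffer-gate cells, Ms4a7 by 1.69 ± 0.14 (adjusted p = 5.08e-07) and Pf4 by 1.57 ± 0.25 (adjusted p = 0.000202). Neither was called against the Trem2 Gpnmb cells inside the gate, where Ms4a7 had a log2 fold change of 0.90 ± 0.14 (adjusted p = 0.000399) and Pf4 one of 0.58 ± 0.24 (adjusted p = 0.131).

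By the naming rule the falls against other Kupffer-gate cells were led by Pcolce2 and Kcna2, which had 0 UMIs in the members and were at least 248-fold and 205-fold lower, followed by Cxcl13 and the Kupffer genes Marco and Timd4. Timd4 had 3 member UMIs against 984, a ratio of 258 (95% interval 87.9 to 1251), and Marco had 3 against 1181, a ratio of 309 (106 to 1501). The chemokine gene Cxcl13 had 1 against 585. Fcna and C6 each had a log2 fold change of -7.13, and Epb41l3, a membrane skeleton protein, one of -6.84. Slc40a1 stood at 890.0, 873 and 1063 CPM in these cells (-4.68 ± 0.11), and after thinning was detected in 66.7%, 69.1% and 67.7% of them against 6.47%, 6.72% and 7.62% of members and 1.88%, 0.331% and 1.58% of T cells. Among 13 iron and heme genes 5 were lower and none higher, including Tfrc, the transferrin receptor (-2.61), Blvrb, a biliverdin reductase (-1.12), and Cd163, the hemoglobin scavenger receptor, which had 2 member UMIs against 185. Irf7 and Ifi44, both induced by interferon, were lower (-1.41 and -2.39), 2 of the 14 interferon-stimulated genes.

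**Figure D2:**
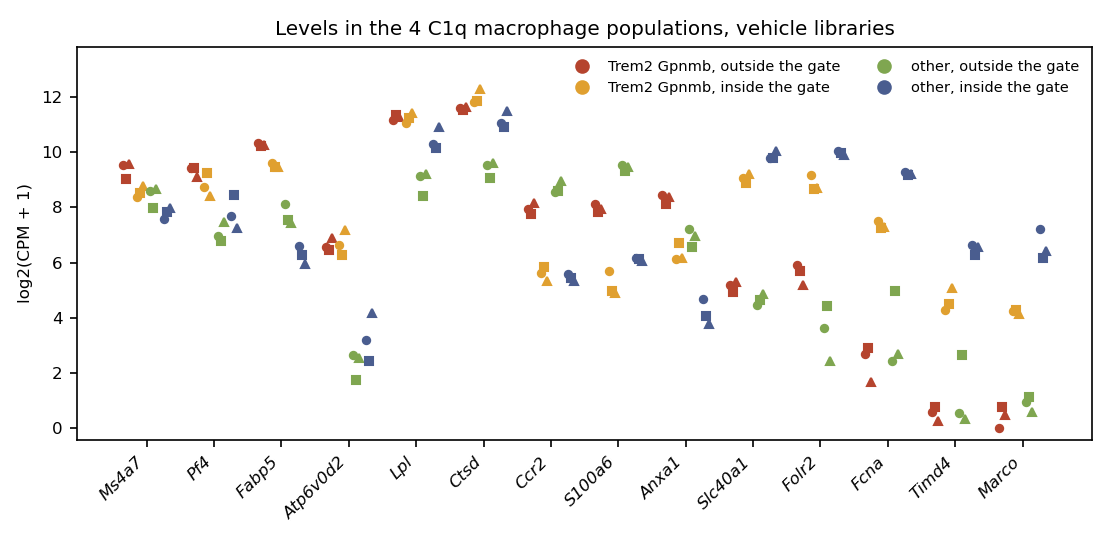
Levels of 14 genes in the 4 C1q macrophage populations of the vehicle libraries, as log2(CPM + 1), with circles, squares and triangles for replicates 1, 2 and 3. Fabp5 and Anxa1 are highest in the members, Slc40a1, Folr2, Fcna, Timd4 and Marco are low in both populations outside the Kupffer gate, and Ccr2 and S100a6 are highest in the other macrophages outside it.

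Against other C1q macrophages outside the gate, members had higher levels of most lipid-associated genes and of part of the lysosomal genes, and lower levels of part of the monocyte genes. There were 282 genes higher (2.76%) and 607 lower (5.95%). Of the 22 lipid-associated macrophage genes 18 were higher and none lower, with a median log2 fold change of 1.48 against -0.02 for all genes. Of 32 lysosomal genes 13 were higher and none lower, with a median of 0.73, and of 18 monocyte genes 8 were lower and none higher, with a median of -0.63. Kupffer identity genes were low in both populations, with 3 of 23 higher, 1 lower and a median of 0.45.

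The summed levels of markers of several other cell types were higher in the other macrophages outside the gate. Hepatocyte markers summed to 749 to 2823 CPM in them and 145 to 305 CPM in members, plasma cell markers to 1401 to 3925 against 35.7 to 371 CPM, T cell markers to 69.8 to 153 against 3.39 to 26.7 CPM, dendritic cell markers to 107 to 139 against 14.6 to 20.7 CPM and cholangiocyte markers to 16.8 to 178 against 2.19 to 4.29 CPM. These sums rested on few cells in part: 2 or more hepatocyte UMIs were found in 22.4%, 63.0% and 90.2% of members and 13.4%, 50.4% and 77.8% of the other macrophages, and 2 or more plasma cell UMIs in 5.97%, 6.67% and 6.65% against 4.53%, 5.79% and 4.09%. Neutrophil markers summed to 109, 26.5 and 132 CPM in members against 23.4, 36.1 and 47.0 CPM. All 6 hepatocyte, all 4 cholangiocyte and 5 of 6 dendritic cell markers were lower in members. Their C1q sum was under 10 in 32.7%, 44.6% and 24.6% of cells, against 3.48%, 2.96% and 0.949% of members. With a C1q sum of at least 10 in every population, an alternative added after the data were seen, 164 genes were higher and 158 lower, and lipid-associated genes still had 16 higher and none lower, lysosomal genes 6 and none, and monocyte genes none and 5. Without cells holding 2 or more UMIs of other cell types, the counts were 14 higher for lipid-associated, 7 higher for lysosomal and 8 lower for monocyte genes. That filter counted no hepatocyte or dendritic cell markers, so cells with only their UMIs were kept.

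Among the higher genes were several of fatty acid and lipoprotein handling. Lpl stood at 555, 339 and 587 CPM in the other macrophages outside the gate, below every member value (log2 fold change 2.43 ± 0.16, adjusted p = 1.55e-07). Cd36, the fatty acid translocase, stood at 402, 329 and 277 CPM in members against 100.4, 54.4 and 73.1 CPM (2.25 ± 0.12). Fabp5 was at 278, 187 and 173 CPM in the other macrophages (2.67 ± 0.12) and Fabp7 was higher by 2.58. Of 18 genes of lipid uptake and droplets 7 were higher and 1 was lower. Among 12 genes of cholesterol efflux and liver X receptor targets 3 were higher, Apoe, the main macrophage apolipoprotein (1.35 ± 0.14), Abca1, the cholesterol exporter (1.34), and Pltp (1.10, and 0.97 without vehicle replicate 3, under the fold limit), and Apoc1 was lower. None of the cholesterol genes passed at a C1q sum of at least 10.

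Several lysosomal genes were higher as well. Ctsd stood at 736, 534 and 787 CPM in the other macrophages outside the gate against 3084, 2904 and 3184 CPM in members (2.28 ± 0.10, adjusted p = 4.06e-09). Ctsb, a cysteine protease of lysosomes, stood at 5242, 4982 and 4428 CPM in members against 1795, 1336 and 1530.3 CPM (1.76 ± 0.10). Atp6v0d2 was at 5.33, 2.36 and 4.91 CPM in the other macrophages, the largest rise by the naming rule (4.59 ± 0.21), and Atp6v0a1 and Atp6v1a were the other V-ATPase genes that passed (1.68 and 1.34). Lipa, the lysosomal acid lipase, was higher by 1.40 and Ctsl by 1.55 on the log2 scale. Mitf, a MiT/TFE factor, stood at 30.7, 46.5 and 58.9 CPM against 19.7, 19.5 and 28.4 CPM (1.08 ± 0.14), and its relative Tfec did not pass (0.02 ± 0.24, adjusted p = 0.983), although Tfec was lower than in both Kupffer-gate populations (-1.96 and -2.51).

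A smaller part of the growth factor and matrix genes was higher. Igf1, insulin-like growth factor 1, stood at 294, 323 and 272 CPM in members against 69.3, 95.8 and 59.1 CPM (2.14 ± 0.11), and Mmp12 at 400.4, 241 and 457 CPM against 94.8, 42.0 and 129 CPM (2.17 ± 0.14). Of 20 growth factor and matrix genes 6 were higher and none lower, and apart from Igf1 these were Lgals3, the matrix proteases Mmp12, Mmp13 and Mmp27 and the inhibitor Timp2. Mertk, a receptor for the uptake of dying cells, was higher by 1.40 on the log2 scale and Adgre1, which encodes F4/80, by 1.21, while Mertk was lower than in other Kupffer-gate cells (-1.07). Pf4 was higher by 2.27 ± 0.25 (adjusted p = 1.68e-05) and Ms4a7 by 1.07 ± 0.14 (adjusted p = 6.99e-05).

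Genes lower than in the other macrophages outside the gate included 8 monocyte genes and markers of other cell types. Plac8, a small protein of monocytes and lymphocytes, stood at 157, 93.0 and 86.8 CPM in members against 1936, 1723 and 823 CPM (-3.49 ± 0.34). S100a6 was at 744, 639 and 697 CPM in the other macrophages (-1.36 ± 0.13) and S100a4 at 616, 565 and 733 CPM (-2.0 ± 0.27), so members lay between these cells and the Kupffer-gate cells for both genes. Ccr2 had the same order at 379, 383 and 491 CPM in the other macrophages, with a log2 fold change of -0.64 ± 0.15 that was under the fold limit. Tm4sf4, Krt8 and Krt18, genes of bile duct epithelium, were lower (-5.49, -3.77 and -4.00), as were Clu, clusterin (-4.75), Cp, ceruloplasmin (-3.27), Ptprcap, a lymphocyte phosphatase partner (-4.03), and Jchain, of plasma cells (-3.58). These 7 genes moved with the markers of other cell types above, whose part in the falls was not tested, and Clu stood at -0.82 without cells holding other cell types' UMIs. Jchain turned to 3.80 at a C1q sum of at least 10 and was lost without vehicle replicate 2 (-2.60, adjusted p = 0.169).

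**Figure D3:**
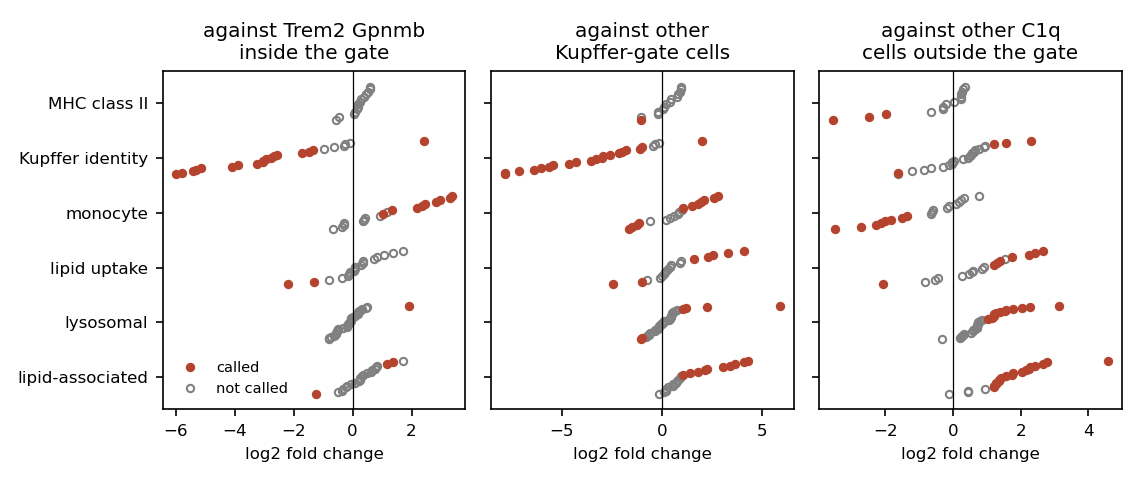
Log2 fold changes of members against each of the 3 other populations for the genes of 6 lists, with filled points for genes that passed the test and open points for those that did not. Most Kupffer identity genes lie below 0 against both Kupffer-gate populations (17 and 19 of 23 lower, medians -2.75 and -3.0, with Clec4e higher in both), and 18 of 22 lipid-associated genes are higher than in the other macrophages outside the gate (median 1.48).

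Of 14 class II genes 0% passed against the Trem2 Gpnmb cells inside the gate and 7.14% against other Kupffer-gate cells. Against other macrophages outside the gate 21.4% passed. Of all genes 5.08%, 9.57% and 8.71% passed, in the same order. Cd74, the class II chaperone, stood at 11565, 18408 and 21810.0 CPM in members, and H2-Aa, a class II chain, at 9421, 7429.9 and 6715 CPM. Neither reached the fold limit in any of the 3 comparisons, and the largest of these differences were against other Kupffer-gate cells (Cd74 0.94 ± 0.10, adjusted p = 4.23e-06, and H2-Aa 0.88 ± 0.10, adjusted p = 1.2e-05). Of 14 class II genes 0 passed against the Trem2 Gpnmb cells inside the gate by edgeR or DESeq2, with 7 at an unadjusted p under 0.05, and 3 were lower than in the other macrophages outside it, H2-Oa, H2-Ob and H2-DMb2 (-3.56, -2.47 and -1.98), which modulate class II loading in B and dendritic cells. Cd86, a costimulator, was lower than in other Kupffer-gate cells (-1.05).

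Among 24 chemokine and cytokine genes members were higher than other Kupffer-gate cells in 3 and lower in 3. Ccl9 stood at 920.0, 916 and 513 CPM against 254, 229.9 and 153 CPM (1.95 ± 0.08), and Cxcl14, a chemokine of monocytes, at 138, 155 and 139.6 CPM against 40.5, 46.5 and 50.9 CPM (1.74 ± 0.16). Il1a, an alarmin cytokine, was lower than in either Kupffer-gate population (-2.19 and -2.29). Cxcl10, induced by interferon, was lower than in the other macrophages outside the gate (-1.56).

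Of 11 genes of TREM2 signalling 0%, 0% and 18.2% passed in the 3 comparisons, against 5.08%, 9.57% and 8.71% of all genes. Tyrobp encodes the TREM2 adaptor. Tyrobp stood at 4024, 3753 and 2773 CPM in members, 4284, 4232 and 2760.3 CPM in Trem2 Gpnmb cells inside the gate, 4589, 4094 and 2717 CPM in other Kupffer-gate cells and 3166, 2513 and 2142 CPM in other macrophages outside it, and it reached the fold limit in none of the comparisons (0.54 ± 0.10, adjusted p = 0.00107, in the last). Of 11 signalling genes 0 passed against either Kupffer-gate population by edgeR or DESeq2, with 3 and 7 at an unadjusted p under 0.05. Against the other macrophages outside the gate 2 of the 11 passed, Apoe higher and Clu lower. Among 18 macrophage lineage genes Bhlhe41, a transcription repressor, was higher in all 3 comparisons, at 16.6, 15.0 and 18.1 CPM in members against 7.63, 2.57 and 7.24 CPM inside the gate (1.55 ± 0.29), 1.66, 0 and 0.821 CPM in other Kupffer-gate cells and 7.88, 1.77 and 6.20 CPM in the other macrophages outside (1.71 ± 0.31). Klf2, a flow-responsive transcription factor, was lower than in other Kupffer-gate cells (-1.64). Of 18 immediate-early and dissociation genes, Atf3 and Egr2 were higher than in other Kupffer-gate cells, Atf3 by 1.62 on the log2 scale. Of 18 cell cycle genes 0 passed in any comparison by edgeR or DESeq2, with 1, 4 and 2 at an unadjusted p under 0.05.

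Variation among members was ranked by the variance-to-mean ratio, which grows with a gene's level, and Apoe, Spp1, Lyz2 and Fabp5 came first on this measure. Cells were thinned to 2000 UMIs, and the lowest ratio of the 3 vehicle libraries was taken. The ratio was 50.1 for Apoe, 12 for Spp1, 11.4 for Lyz2, the lysozyme gene, and 8.43 for Fabp5, against a median of 1.03 over 924 genes. Spp1 encodes osteopontin, and its level in members was 617, 859 and 1447 CPM against 1651, 1876 and 412 CPM in the other macrophages outside the gate, whose range overlapped (-0.11 ± 0.63, adjusted p = 0.945). It was higher than in other Kupffer-gate cells, which stood at 322, 101 and 25.2 CPM (3.05 ± 0.69, adjusted p = 0.00416). Thinned members had Spp1 in 42.3%, 26.9% and 40.0% of cells and T cells in 11.9%, 8.76% and 4.97%. Whether the Spp1 UMIs of T cells were free RNA was not tested. Unthinned shares were 64.7%, 57.8% and 67.7% against 20.9%, 14.2% and 11.7%.

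Ccr2 and Cd9 were set against Spp1 within the members. Thinned, Ccr2 was detected in 25.9%, 5.56% and 34.9% of members with Spp1 and in 36.2%, 26.5% and 42.9% of those without it. Cd9, a tetraspanin of lipid-associated macrophages, was detected in 63.5%, 61.1% and 84.1% of members with Spp1 and in 56.0%, 52.0% and 56.1% of those without. Both differences had the same sign in 3 of 3 vehicle libraries and were not tested, since cells are not replicates.

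The 7 members of the ginkgetin libraries were too few for a test of gene levels between groups, and 5 of them came from replicate 3. They held 89429 UMIs in all, and their pooled levels are given with 95% Poisson intervals that cover counting error only. Ms4a7 was at 827 CPM (649.7 to 1039) and Pf4 at 895 CPM (709 to 1113), so the label markers were present in these cells as well. Of 372 listed genes, 55 had all 3 vehicle values outside the interval, 34 of them with the ginkgetin cells higher and 21 with them lower.

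Of 18 genes of lipid uptake and droplets 4 were lower, none was higher and 14 had vehicle values inside the interval or on both sides of it, and of 22 lipid-associated macrophage genes 7 were lower and 4 higher. Of 18 dissociation and immediate-early genes 3 were lower and none higher, among them the heat shock gene Hspa1a at 22.4 CPM (2.71 to 80.8) against 581, 373 and 491 CPM, which was named after its values were seen. The part of cell handling in the other values was not tested. Fabp4, an adipocyte and macrophage fatty acid binding protein, was at 11.2 CPM (0.283 to 62.3) from 1 UMI, against 192, 229 and 241 CPM in vehicle members. Fabp5 was at 447 CPM (319.5 to 609) against 1288, 1177 and 1224 CPM. Plin2, which coats lipid droplets, was at 257 CPM (163 to 386) against 722, 564 and 769.5 CPM. These 3 genes lay below every vehicle library in the pooled ginkgetin cells. Lpl was at 1509.6 CPM (1266 to 1787), also below all vehicle values, as were Lgals3 at 1733 CPM (1471 to 2029), Lgals1 at 235 CPM (145 to 359) and Anxa1 at 101 CPM (46.0 to 191).

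Other genes were higher in these 7 cells, among them 6 of 23 Kupffer identity genes outside the rule, with none lower. Slc40a1 was at 257 CPM (163 to 386) against 35.2, 29.3 and 38.8 CPM in vehicle members, and the other 5 were Cd207, Clec1b, Hpgd, Dmpk and Adrb1, named after their values were seen. The endothelial gene Dnase1l3 moved the same way. Of the 7 cells 5 held 2 or more UMIs of other cell types (hepatocyte and dendritic cell markers not counted), as did 283 of 652 vehicle members. The part of such RNA in these values was not tested. Csf1r, the receptor for macrophage colony-stimulating factor, was at 1073 CPM (869.5 to 1311) against 468, 509 and 581 CPM. Ccr2 was at 425 CPM (301 to 583) against 247, 215 and 281 CPM, but of 18 monocyte genes 2 were higher and 3 lower, among them S100a6 at 89.5 CPM (38.6 to 176) and Plac8 with 0 UMIs. Ctsd was at 3735 CPM (3345 to 4158), just above the vehicle members. Spp1 was at 1845 CPM, and all of it came from 2 of the 7 cells. Gene levels in so few cells can rest on a single cell, and no difference between groups is drawn from them.

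**Figure D4:**
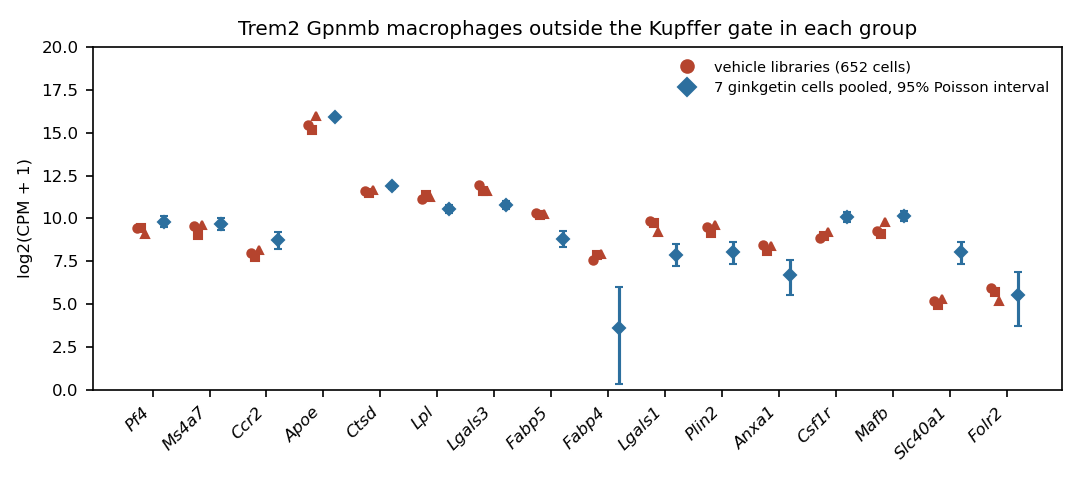
Levels of 16 genes as log2(CPM + 1), with points for members of the 3 vehicle libraries and for the 7 pooled ginkgetin members, whose error bar is the 95% Poisson interval of counting. Fabp4, Fabp5, Plin2, Lgals1 and Anxa1 lie below all vehicle points, and Slc40a1 and Csf1r lie above them.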

How the data were processed

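Single-cell RNA was sequenced in 6 libraries of liver non-parenchymal cells, by 10x Genomics as the labels' description and the study's methods say, although the labels' extract protocol names another kit (SMARTER mRNA-Seq), so that calling the counts UMIs rests on the former. The authors deposited whole-number UMI counts per gene and cell, with no normalization, and the submitters' processing notes name GRCm38 and mm10. The aligner is not given in the sources used here. The tables hold 19349 genes, of which 4639 had 0 UMIs in a whole vehicle library and were left out of the gene tests, 270 of them with 1000 or more UMIs in another, so the replicates may have been annotated differently. The members and gene lists were chosen with earlier results of these data known.

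UMIs of each vehicle library and population were summed and tested with edgeR 4.0.16 (limma 3.58.1, R 4.3.3; filterByExpr, TMM, quasi-likelihood, library block, Benjamini-Hochberg), with a fold over 2 and adjusted p under 0.05. DESeq2 1.42.0 was an alternative. Shares were compared by exact permutation (Python 3.11.15, scipy 1.17.1). A vehicle against ginkgetin gene test needed 10 members in each library and was not run. No doublet caller was run. Left out as alternatives were the 5% of cells with most UMIs, and cells with 2 or more UMIs of other cell types. These UMIs were summed over markers of T, B, NK and plasma cells, stellate cells and fibroblasts, cholangiocytes and neutrophils, and Stab2, Clec4g and Dnase1l3. Hepatocyte and dendritic cell markers were not counted, wherever cells holding UMIs of other cell types are named. The remaining alternatives changed the cell filter, depth, rule thresholds, gene filter, scaling, block and libraries. The script was tested on simulated data. Named genes were the 8 largest rises and 8 largest falls of each comparison among called genes at 50 CPM or more without overlap, the label markers, and up to 4 members of each list. Fabp5 and Fth1 have near-identical copies, and their counts are uncertain. Library totals, given in the results, set the precision, and the intervals (95% Poisson or exact) cover counting error only. Equal replicate numbers were taken to pair the libraries: deviations from group means of same-numbered libraries correlated at 0.694, 0.724 and 0.908 over 8096 genes, and those of replicates 1 and 2 with each other's number at 0.544 and 0.650, so the numbers mainly set replicate 3 apart.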

Additional observations from a re-analysis of the deposited data

Results flagged for a closer look

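The share of C1q macrophages with both Trem2 and Gpnmb, outside minus inside the Kupffer gate, differed in sign between the groups. It was -20.3, -7.65 and -16.9 percentage points in the vehicle libraries and 2.70, 4.55 and 12.8 points in the ginkgetin libraries. The ginkgetin share inside the gate was 0 in every library, so the value there could not be negative, and it rested on 1, 1 and 5 cells outside. In ginkgetin replicate 1 the share of up to 3.16% that 3 counts allow inside exceeded the 2.70% outside. The difference between the groups was 21.6 points (two-sided exact permutation p = 0.10, the smallest that 3 against 3 libraries allow), and it was 17.6 within replicates 1 and 2 and 29.7 in replicate 3. With a C1q sum of at least 10 it was 14.9 points (exact permutation p = 0.20), vehicle replicate 2 stood at 5.29 points, and the groups overlapped. The difference did not keep its sign when cells were thinned and shallower cells left out, which removed more ginkgetin than vehicle cells. At 2000 UMIs it was -3.20 points (exact permutation p = 0.60), and at 1000 UMIs it was -6.96 points (exact permutation p = 0.10), where every ginkgetin share was 0 on both sides and the value is that of the vehicle libraries alone. In both cases the vehicle libraries had the larger mean share outside the gate. Vehicle cells with both genes were deeper inside the gate (median UMIs 11736, 9678 and 19344) than outside it (9205, 8798 and 15083.5), and the other cells inside the gate of the ginkgetin libraries had medians of 2235, 1732.5 and 2315.5.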

How the results depend on the processing

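The difference in members' share between the groups kept its sign under every alternative run. It ran from -0.867 (UMI reading) to -8.83 points of kept cells (without cells holding other cell types' UMIs). It ran from -8.14 to -18.2 points of C1q macrophages, and from -3.63 to -5.78 and -12.2 to -18.2 points leaving out 1 replicate. The filter behind -8.83 points also took most kept cells out of the denominator, so its size cannot be set beside the other shares. Kept vehicle cells went from 6017, 3336 and 4137 to 1742, 1063 and 1344, and vehicle members from 201, 135 and 316 to 127, 78 and 164. Kept ginkgetin cells went from 3493, 6918 and 3643 to 249, 112 and 570. The edgeR test on cell numbers gave the members a log2 change of -6.46 (adjusted p = 0.00125) and -6.62 with the replicate block (adjusted p = 0.0092). In it 2 other C1q populations fell too, and kept cells that were not C1q macrophages rose (log2 change 0.40, adjusted p = 0.0381). The exact sign-flip permutation test over the pairs gave p = 0.25, the smallest for 3 pairs. Against the Trem2 Gpnmb cells inside the gate, 519 genes were called, 262 without the library block, 47 under the UMI reading, 290 thinned to 2000 UMIs and 343 without cells holding other cell types' UMIs. Against other Kupffer-gate cells 977 were called, 143 under the UMI reading and 537 thinned. Against other macrophages outside it 889 were called, 544 without the block, 89 (55 higher, 34 lower) under the UMI reading, 1632 (361 and 1271) with no cell filter, 351 (170 and 181) thinned, 322 with a C1q sum of at least 10, an alternative added after the data were seen, and 372 (159 and 213) without cells holding other cell types' UMIs. Leaving out 1 replicate gave 358 to 504, 793 to 973 and 669 to 921 genes. Of 149 called values of named genes 89 were called under every setting that gave a value, and 5 changed sign: outside the gate Ccl24 (1.49) and Pltp (-0.33) under the UMI reading, Jchain (3.80) at a C1q sum of at least 10 and Trf (-0.42) with no cell filter, and Tm4sf4 against other Kupffer-gate cells (0.49) with no cell filter. The cause was not tested. Gene tests between vehicle and ginkgetin members and the fit over all libraries with 10 cells in every population were not run, because the ginkgetin libraries held 1, 1 and 5 members. In the gene tests the library block was the block by replicate, since each vehicle replicate is 1 library.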
